A study of Mus musculus with 6 samples.

Results

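The cytosolic ribosomal protein genes encode the proteins that, with ribosomal RNA, build the small (Rps) and large (Rpl) subunits of the ribosome that translates nuclear-encoded mRNAs. They were taken as all probe sets whose gene symbol is Rpl, Rps or Rplp followed by a number and at most a short suffix, leaving out Rps27l and the S6 kinases. This rule gave 360 of the 23346 probe sets on the array and 82 of its 20723 gene symbols, of which 43 belong to the large subunit, 30 to the small subunit, 3 to the stalk and 6 are paralogs of another member. A total of 16 genes have 1 probe set and 66 have several, with 344 probe sets between them. Rpl29 has the most, with 27, followed by Rps2 with 17, Rpl17 with 16 and Rpl7a with 15. RefSeq names 304 mouse pseudogenes after these genes, so several probe sets with the symbol of a gene may read its processed copies, and signals of near-identical copies are uncertain. Rpsa, Fau, Rpl36al and Gnb2l1 (now Rack1), which also encode ribosomal proteins or ribosome-bound proteins, have symbols outside the rule.

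The samples were mouse embryonic fibroblasts (MEF) of the strain Ola129, grown in serum with leukemia inhibitory factor and harvested in exponential growth. The titles give 4 groups: Ink4a/Arf-/- Ezh2 -/- cells and Ink4a/Arf-/- Ezh2 fx/fx cells with 2 arrays each, and Ink4a/Arf+/+ Ezh2 -/- cells and Ink4a/Arf+/+ Ezh2 fx/fx cells with 1 array each. Ezh2 is the histone methyltransferase of Polycomb repressive complex 2, fx/fx is used as the titles write it, and Ink4a/Arf is the locus of a kinase inhibitor and of Arf, which blocks Mdm2 and so stabilises p53. The text on the series speaks instead of transient transfection with esiRNA against Ezh2, and how the Ezh2 -/- state was produced is not settled by the labels. Nothing says that replicates were separate cultures, so p-values measure only the spread between these samples, which may be technical, and the number of arrays limits the precision.

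Ribosomal protein mRNAs are among the most abundant in growing cells and are made in near-equal amounts from scattered genes. Many begin with a short pyrimidine tract, through which mTOR signalling sets their translation, and their output is tied to ribosomal RNA synthesis and to Myc. Free Rpl5 and Rpl11, bound to 5S RNA, inhibit Mdm2 when ribosome assembly fails, which puts these proteins on the pathway that Arf also feeds.

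The start regions of 5 members are shown because these genes are described below. Rpl5 and Rpl22l1 read lower in every probe set of both backgrounds, and Rpl37a read higher in every probe set. Rps6 is the substrate of the S6 kinases, and Rpl4 is a gene with 1 probe set that hardly differed. Each run covers 120 bases before and 30 bases from the annotated start in RefSeq's GRCm38.p6, 5′ to 3′ on the strand of the gene. Capitals mark a run of at least 8 pyrimidines lying within 20 bases of the start and any CCGGAAG, the core of an ETS-type site. The regions are chr5:107900408-107900557 (plus strand) for Rpl5, chr3:28805388-28805537 (plus) for Rpl22l1, chr1:72711140-72711289 (plus) for Rpl37a, chr4:86857338-86857487 (minus) for Rps6 and chr9:64173267-64173416 (plus) for Rpl4.
Rpl5: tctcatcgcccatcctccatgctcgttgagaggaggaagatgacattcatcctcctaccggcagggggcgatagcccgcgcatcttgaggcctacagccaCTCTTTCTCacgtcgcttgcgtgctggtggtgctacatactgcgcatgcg
Rpl22l1: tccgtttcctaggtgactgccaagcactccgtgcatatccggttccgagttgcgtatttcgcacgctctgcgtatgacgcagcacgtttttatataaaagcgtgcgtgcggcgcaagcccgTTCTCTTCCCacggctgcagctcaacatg
Rpl37a: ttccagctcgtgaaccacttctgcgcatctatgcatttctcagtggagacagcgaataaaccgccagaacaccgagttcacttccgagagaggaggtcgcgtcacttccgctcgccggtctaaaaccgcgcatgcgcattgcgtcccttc
Rps6: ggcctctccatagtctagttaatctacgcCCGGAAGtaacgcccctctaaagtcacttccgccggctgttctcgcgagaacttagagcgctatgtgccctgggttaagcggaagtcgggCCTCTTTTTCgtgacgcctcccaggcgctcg
Rpl4: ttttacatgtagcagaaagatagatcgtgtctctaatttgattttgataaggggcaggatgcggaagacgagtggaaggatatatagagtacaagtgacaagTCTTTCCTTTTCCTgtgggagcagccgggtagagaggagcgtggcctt

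RefSeq start regions were found for 61 of the 82 genes, in 72 windows of 300 bases, and were compared with all 32851 windows. A pyrimidine run of at least 8 bases on the strand of the gene, within 20 bases of the start, lay in 41.7% of the ribosomal windows and in 16.0% of all windows. The other letters were searched on both strands: CTTTCC, which can lie inside such a run, was in 48.6% against 26.6%, CCGGAAG in 34.7% against 8.86%, the E-box CACGTG bound by Myc in 11.1% against 7.15%, GCGCATGCG in 4.17% against 1.75% and TATAAA in 9.72% against 13.6%. A match is a description of the letters in a window and no site.

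The arrays gave these features in the following setting. Array medians lay between 8.25 and 8.32 on the log2 scale in the Ink4a/Arf-/- table and at 7.50 and 7.51 in the Ink4a/Arf+/+ table, and levels were compared within a table only. Ezh2 read 10.62 and 10.51 without Ezh2 against 10.92 and 10.91 with it in Ink4a/Arf-/- cells (limma, adjusted p = 0.577), and 10.12 against 10.48 in Ink4a/Arf+/+ cells. The position of its probes in the gene is not stated by any label or header, so these readings check no genotype. All 9 fibroblast markers ranked between the 59.3rd and 99.97th percentile of an array, and no marker of blood, embryonic stem, endothelial, epithelial or erythroid cells ranked above the 61.8th. The summed log2 level of the fibroblast markers was 112.4 to 112.6 without Ezh2 and 112.2 to 112.5 with it in Ink4a/Arf-/- cells, and 109.5 against 111.6 in Ink4a/Arf+/+ cells, where Pdgfra alone differed by -1.41. The summed level of the 3 erythroid markers, all below the 35.5th percentile, was 14.5 to 14.7 without Ezh2 and 15.7 to 16.7 with it in Ink4a/Arf-/- cells, and 14.9 against 14.3 in Ink4a/Arf+/+ cells. For the blood, embryonic stem, endothelial and epithelial lists the ranges of the genotypes overlapped in Ink4a/Arf-/- cells. The part of these differences in the ribosomal values was not tested, and in bulk RNA fewer cells of a type and less RNA per cell cannot be told apart.

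The first comparison set Ezh2 -/- against fx/fx in cells lacking Ink4a/Arf. Ribosomal protein transcripts differed little: the median log2 difference over the 360 probe sets was -0.041, and over all probe sets of the array it was -0.027. No member passed limma's test (0 of 360 at a Benjamini-Hochberg adjusted p below 0.05, beside 0.0% of all probe sets). At an unadjusted p below 0.05 there were 37 members, or 10.3%, beside 6.93% of all probe sets, and 32 of these read lower and 5 higher, which is 8.89% and 1.39% beside 4.12% and 2.8%. Of these 37, 3 were the brightest probe set of their gene, meaning the one with the highest mean level, which is 3.66% of the 82 beside 6.54% of all genes taken the same way.

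Most members read slightly lower without Ezh2, with 252 of 360 below 0, or 70.0% beside 60.9% of all probe sets. Both Ezh2 -/- arrays lay below both fx/fx arrays for 96 probe sets, or 26.7% beside 23.6%, and above both for 26, or 7.22% beside 13.0%. The arrays were not alike in this. Centred on the mean of the 4 arrays, the median member read -0.066 and 0.016 on Ezh2 -/- replicates 1 and 2 and 0.049 and 0.011 on fx/fx replicates 1 and 2. Without Ezh2 -/- replicate 1, 194 members read lower, or 53.9% beside 62.4% of all probe sets, so the share of low readings was below that of the array. The median in that fit was -0.0089. Without Ezh2 -/- replicate 2, 276 members read lower, or 76.7% beside 56.0%, and the median was -0.092.

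**Figure D1:**
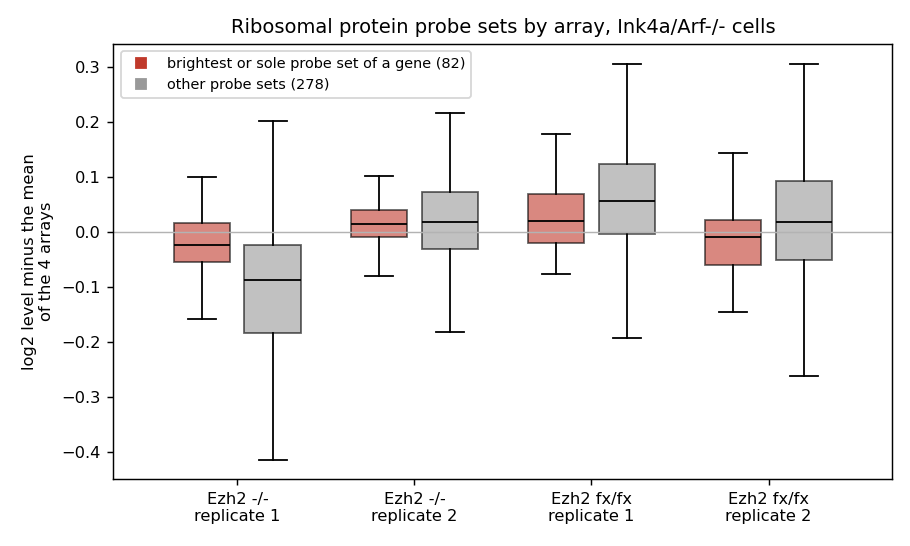
Log2 level of each ribosomal protein probe set minus its mean over the 4 Ink4a/Arf-/- arrays, as boxes (median and quartiles, whiskers to the last value within 1.5 times the quartile range) for the 82 brightest or sole probe sets and the other 278. The grey box of Ezh2 -/- replicate 1 sits lowest, with a median of -0.087, while the medians of the red boxes lie between -0.023 and 0.020.

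Median differences were lower in dimmer and secondary probe sets. For the 82 brightest or sole probe sets the median difference was -0.014, beside -0.025 over all genes of the array taken the same way, and for the other 278 it was -0.071. The 16 genes with 1 probe set had a median of 0.016, and 7 of them read lower. With members split by mean level, at bounds chosen after the values were seen, the median was -0.107 for the 34 below 8, -0.086 for the 166 from 8 to 12 and -0.022 for the 160 at 12 and above. Probe sets of other genes in these classes had medians of -0.039, -0.019 and -0.0032. The shares reading lower were 70.6%, 74.7% and 65.0% for members and 64.3%, 58.2% and 51.7% for other probe sets. The standard deviation across members was 0.24, 0.18 and 0.089 in the same order.

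The spread between replicates sets how precisely a difference was read, while calls also depended on the adjustment over all probe sets. On the whole array 88 probe sets differed by at least 1.5-fold and 0 were called, so differences of that size could go uncalled. Over the 82 brightest probe sets the median standard error was 0.078 (n = 2 arrays per genotype), and limma's 95% interval, not adjusted for the number of genes, extended a median of 0.19 to either side. For 81 genes this interval lay within 1.5-fold in both directions, the exception being Rps27a. It left out 0 for Rpl5, Rpl22l1 and Rps27a.

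**Figure D2:**
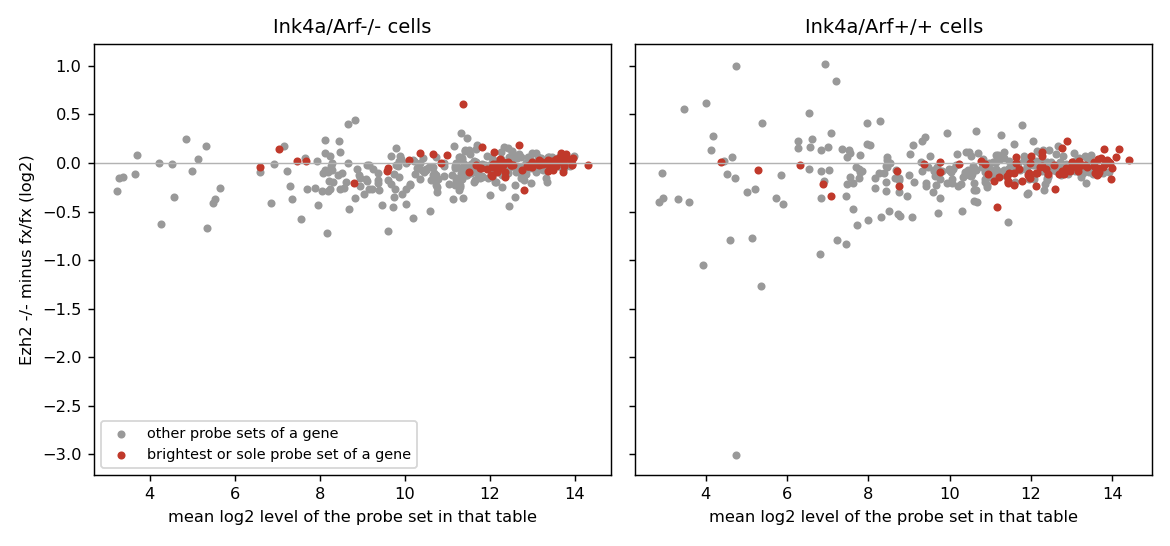
Difference of Ezh2 -/- minus fx/fx (log2) against the mean log2 level of the probe set in its own table, for the Ink4a/Arf-/- arrays (left) and the Ink4a/Arf+/+ arrays (right). Most of the 82 brightest or sole probe sets (red) lie close to 0, with Rps27a apart at 0.61 and -0.45, and the spread of the others (grey) widens toward low levels, down to -3.01 for an Rpl13 probe set in Ink4a/Arf+/+ cells.

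The second comparison set the single Ezh2 -/- array against the single fx/fx array of Ink4a/Arf+/+ cells, and so has no replicate check and no test. The median member read -0.068 lower on the log2 scale, beside a median of 0.00072 over all probe sets, and 258 of 360 members read lower, or 71.7% beside 48.1%. The brightest probe sets had a median of -0.054, beside 0.0059 for all genes taken the same way, and 62 of 82 read lower. Of the 119 small subunit probe sets 95 read lower, and their median was -0.092. Of the 225 large subunit probe sets 153 read lower, and their median was -0.055. By level class the medians were -0.118, -0.082 and -0.041 for members, and 0.028, -0.011 and -0.029 for other probe sets.

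Differences of at least 2-fold were as frequent among members as on the whole array, with 4 of 360, or 1.11% beside 1.11%. An Rpl13 probe set read 3.25 against 6.26, a log2 difference of -3.01. An Rpl29 probe set read 4.72 against 5.99 (-1.27), an Rps27a probe set 3.42 against 4.46 (-1.05) and an Rps2 probe set 7.45 against 6.43 (1.02). None of these is the brightest probe set of its gene, and the brightest ones differed by -0.11 for Rpl13, 0.0093 for Rpl29, -0.45 for Rps27a and 0.031 for Rps2. At 1.5-fold there were 15 members, or 4.17% beside 4.47%, of which 11 were lower (3.06% beside 1.83%) and 4 higher (1.11% beside 2.64%), and 14 of the 15 had a mean level under 9 in that table. Rpl29 is known also as a heparin-interacting protein, and Rps27a is made as a fusion with ubiquitin.

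**Figure D3:**
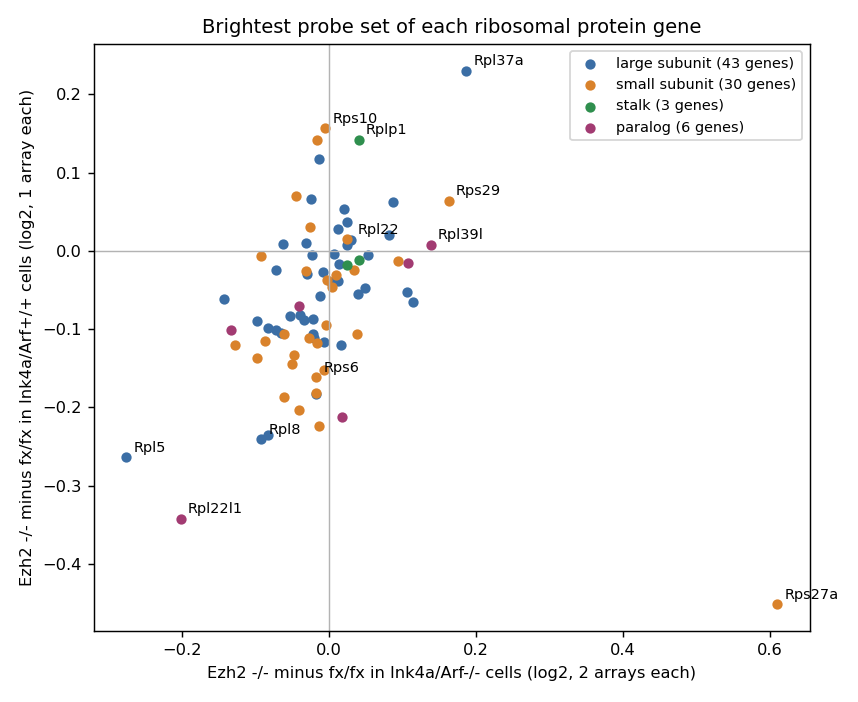
Log2 difference of Ezh2 -/- minus fx/fx for the brightest or sole probe set of each of the 82 genes, in Ink4a/Arf-/- cells (horizontal, 2 arrays per genotype) and Ink4a/Arf+/+ cells (vertical, 1 array per genotype), coloured by role. Rpl5 and Rpl22l1 lie low in both, Rpl37a high in both, and Rps27a lies apart at 0.61 and -0.45.

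Across the 82 genes 42 stayed within 0.1 of 0 in both backgrounds, beside 5721 of all 20723 genes taken the same way. At a level of 12 and above, 89 of 160 member probe sets and 483 of 1024 other probe sets did so. Pearson's r between the backgrounds across the 82 genes was 0.096, beside 0.27 across all genes, as a description of genes that share arrays. This value rests on Rps27a, and without it, a choice made after seeing the data, r was 0.56 across the other 81 genes. Across the 43 large subunit genes r was 0.64, and across the 30 small subunit genes it was -0.40, or 0.36 without Rps27a. Among the 66 genes with several probe sets, every probe set read lower in both backgrounds for 12, among them Rpl5, Rpl6, Rpl14, Rpl22l1, Rpl39, Rps3a, Rps9, Rps19, Rps21 and Rps25. For Rpl37a alone every probe set read higher in both. The same counts were not taken over other genes of the array, where 60.9% and 48.1% of all probe sets read lower. Genes with 2 probe sets, such as Rpl14, Rpl22l1, Rpl39, Rps9 and Rps21, agree more easily than genes with more.

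Rpl5, which carries 5S RNA into the large subunit, had the lowest brightest probe set in Ink4a/Arf-/- cells. It read 12.62 and 12.72 without Ezh2 and 12.86 and 13.02 in fx/fx cells, so the groups did not overlap. The log2 difference was -0.28 ± 0.089 (SE, 2 arrays per genotype), which limma's test did not call (adjusted p = 0.666). In Ink4a/Arf+/+ cells it read 12.46 against 12.72, a difference of -0.26, and the other 3 Rpl5 probe sets read lower as well, between -0.40 and -0.28. Among the 4 in Ink4a/Arf-/- cells the brightest was the lowest, the others lay between -0.25 and -0.015, the median was -0.16, and 1 had an unadjusted p below 0.05. Rpl11, its partner in binding 5S RNA and Mdm2, read 12.16 and 12.16 against 12.09 and 11.998 in Ink4a/Arf-/- cells (0.11 ± 0.076, adjusted p = 0.820) and 11.68 against 11.74 in Ink4a/Arf+/+ cells. Over its 6 probe sets, however, Rpl11 had a median of -0.098 in Ink4a/Arf-/- cells, with 4 lower and 1 at an unadjusted p below 0.05, and all 6 read lower in Ink4a/Arf+/+ cells. Of the other members reported to bind Mdm2, Rpl23, Rps7, Rps3 and Rpl26 differed by -0.0063, -0.027, -0.018 and 0.083 in Ink4a/Arf-/- cells and by -0.116, -0.112, -0.18 and 0.020 in Ink4a/Arf+/+ cells.

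Rpl22l1, a paralog that in mouse is repressed by Rpl22, had low readings on both of its probe sets. The brighter read 8.68 and 8.72 against 8.88 and 8.93 in Ink4a/Arf-/- cells (-0.20 ± 0.073, adjusted p = 0.692) and 6.92 against 7.26 in Ink4a/Arf+/+ cells (-0.34). The other differed by -0.48 ± 0.14 and by -0.18. The probe sets shared their direction and the Ink4a/Arf-/- groups did not overlap, but no difference passed the test. Rpl22 itself read 10.20 and 10.04 against 10.04 and 10.13, with overlapping groups, and 9.76 against 9.75, differences of 0.030 and 0.014.

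None of the other paralogs passed the test in Ink4a/Arf-/- cells. Rpl3l, known from striated muscle, differed by -0.040 and -0.070, and its partner Rpl3 by 0.049 and -0.048. Rpl10l, known from testis, differed by 0.019 and -0.21, and Rpl10, a protein near the peptidyl transferase centre, by 0.013 and 0.028. Rpl39l, also known from testis, read 7.14 and 7.11 against 7.10 and 6.87, and its difference of 0.14 ± 0.098 did not pass the test (adjusted p = 0.836), while Rpl39, at the exit tunnel, differed by -0.098 and -0.090. Rpl7l1 differed by -0.13 and -0.10, and Rpl7 by -0.018 and -0.18. Rps4y2, now named Rps4l, differed by 0.11 and -0.015.

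Rpl37a, a zinc-binding protein of the large subunit, was the opposite case to Rpl5. In Ink4a/Arf-/- cells it read 12.80 and 12.79 without Ezh2 and 12.66 and 12.56 in fx/fx cells, with no overlap (0.19 ± 0.077, adjusted p = 0.724). In Ink4a/Arf+/+ cells it read 12.99 against 12.76, a difference of 0.23. Its other 3 probe sets differed by 0.047 to 0.165 and by 0.089 to 0.134.

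The stalk proteins Rplp0, Rplp1 and Rplp2 recruit elongation factors to the ribosome. Their brightest probe sets differed by 0.042, 0.041 and 0.024 in Ink4a/Arf-/- cells, with standard errors of 0.073 to 0.075. In Ink4a/Arf+/+ cells they differed by -0.012, 0.14 and -0.018, and all 3 Rplp1 probe sets read higher there, by 0.14 to 0.29. The 8 stalk probe sets split into 3 lower and 5 higher in Ink4a/Arf-/- cells.

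Genes with 1 probe set are free of the choice between probe sets. In Ink4a/Arf-/- cells the lowest were Rpl7l1 (-0.13), Rpl8 (-0.092), Rpl30 (-0.053), Rpl3l (-0.040) and Rpl4 (-0.023), and the highest included Rpl39l (0.14), Rps27 (0.094), Rpl26 (0.083) and Rpl22 (0.030). Their standard errors were between 0.072 and 0.098 and none of these genes passed limma's test. In Ink4a/Arf+/+ cells the lowest were Rpl8 (-0.24), Rpl10l (-0.21), Rps3 (-0.18), Rpl7l1 (-0.10) and Rpl30 (-0.083), and the highest included Rpl26 (0.020), Rpl22 (0.014), Rpl39l (0.0079) and Rpl4 (-0.0050). Rpl4, whose start region is printed above with a long pyrimidine run, read 12.32 and 12.27 against 12.32 and 12.32.

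Rps6, whose phosphorylation by S6 kinases is a readout of mTOR signalling, has 7 probe sets. All 7 read lower in Ink4a/Arf-/- cells, between -0.33 and -0.017, and 6 of 7 in Ink4a/Arf+/+ cells, between -0.20 and 0.13. Its brightest probe set read 13.83 and 14.005 against 13.95 and 13.92, so the groups overlapped, and 13.88 against 14.04. None of the 7 passed an unadjusted p of 0.05. Rpl38, which in mouse embryos promotes translation of Hox mRNAs, read 13.23 and 13.27 against 13.29 and 13.24 (-0.013). A further Rpl38 probe set read 10.68 and 12.51 without Ezh2 and 10.88 and 11.79 in fx/fx cells, a spread between replicates that no other Rpl38 probe set showed.

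Several members are mutated in Diamond-Blackfan anaemia, an inherited failure of red cell production. Of their brightest probe sets, those of Rps7, Rps10, Rps19, Rps24 and Rps26 differed by -0.027, -0.0047, -0.061, -0.013 and -0.016 in Ink4a/Arf-/- cells. The differences in Ink4a/Arf+/+ cells were -0.11, 0.16, -0.19, -0.22 and 0.14. Rpl35a differed by -0.083 and -0.098, and Rpl5, Rpl11 and Rpl26 are given above. Rps19, the gene most often mutated in this anaemia, read 11.81 and 11.98 against 12.09 and 11.83, and its groups overlapped.

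**Figure D4:**
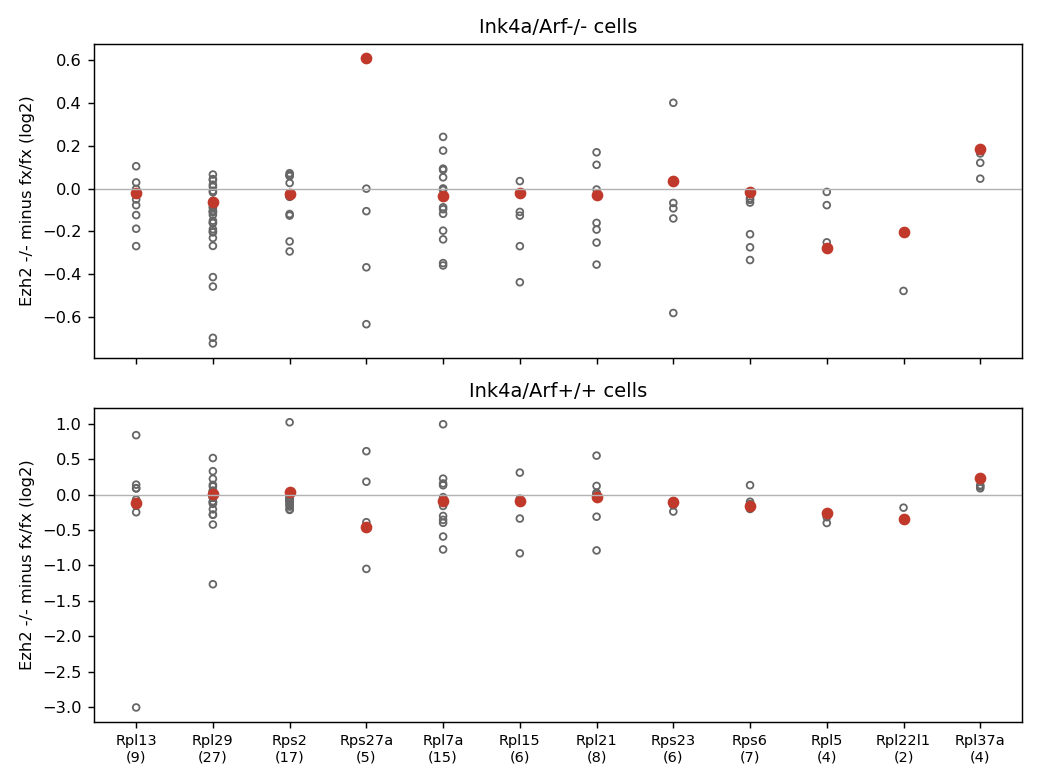
Difference of Ezh2 -/- minus fx/fx (log2) of every probe set of 12 genes, in Ink4a/Arf-/- cells (top) and Ink4a/Arf+/+ cells (bottom), with the number of probe sets in parentheses and the brightest in red. The first 8 genes have the widest ranges, and the last 4 (Rps6, Rpl5, Rpl22l1 and Rpl37a) were chosen after their values were seen. Rpl13 spans -3.01 to 0.84 in Ink4a/Arf+/+ cells and -0.27 to 0.11 in Ink4a/Arf-/- cells.

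Probe sets of 1 gene often disagreed. The 8 genes with the widest ranges in either background were Rpl13, Rpl29, Rpl7a, Rps27a, Rpl21, Rps2, Rpl15 and Rps23. The differences of the 15 Rpl7a probe sets lay between -0.77 and 0.995 in Ink4a/Arf+/+ cells, and the brightest was at -0.088. Those of the 8 Rpl21 probe sets lay between -0.79 and 0.55, with the brightest at -0.029, and those of the 6 Rpl15 probe sets between -0.83 and 0.31, with the brightest at -0.087. Rps23 ranged from -0.58 to 0.40 in Ink4a/Arf-/- cells, with its brightest at 0.038. The brightest Rps27a probe set read 11.73 and 11.64 against 10.71 and 11.44 (0.61 ± 0.23, adjusted p = 0.699), and the fx/fx array of replicate 1 held the low value. In Ink4a/Arf+/+ cells this probe set read 10.95 against 11.40, and the other 4 Rps27a probe sets differed by -0.63 to 0.00026 and by -1.05 to 0.61.

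The third comparison asked whether the Ezh2 difference itself differed between the backgrounds, assuming that the lone Ink4a/Arf+/+ arrays vary like the replicated ones. Of the 360 members 1 passed limma's test, or 0.278% beside 0.407% of all probe sets. It was the Rpl13 probe set with the 2-fold difference above, at -2.93 (adjusted p = 0.006), which read 8.27 and 8.22 against 8.33 and 8.31 in Ink4a/Arf-/- cells. Those 4 readings lie near the middle of their arrays. The standard error behind this p joins their spread (2 degrees of freedom) with limma's prior over all probe sets (3.76 degrees of freedom). The Ink4a/Arf+/+ readings of 3.25 and 6.26, at the 1.15th and 33.7th percentile, are 1 array each. The fit holds no replicate of such low readings of this probe set. The other 8 Rpl13 probe sets differed between the backgrounds by -0.198 to 0.74 and did not pass.

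Genes of related processes were set beside the members, 1 brightest probe set per gene. Over all genes of the array taken the same way, 60.4% read lower in Ink4a/Arf-/- cells and 47.2% in Ink4a/Arf+/+ cells. The medians over all genes were -0.025 and 0.0059. Ribosome biogenesis factors, which process ribosomal RNA and assemble subunits, read lower in 40 of 42 genes in Ink4a/Arf-/- cells and 37 of 42 in Ink4a/Arf+/+ cells, with medians of -0.093 and -0.20. Rrs1, an assembly factor of the large subunit, read 8.66 and 8.51 against 9.03 and 8.73 (-0.30) and 7.90 against 8.45 (-0.54). The pseudouridine synthase Dkc1 differed by -0.19 and -0.64. RNA polymerase I genes read lower in 11 and 10 of 13, with medians of -0.107 and -0.16 and Taf1d, a subunit of its selectivity factor, at -0.035 and -0.67. For the ribosomal proteins themselves the counts were 50 and 62 of 82 and the medians -0.014 and -0.054. None of the listed genes passed limma's test in Ink4a/Arf-/- cells, where 0 of all probe sets did and 1617 had an unadjusted p below 0.05.

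Other mRNAs that start with a pyrimidine tract read lower in 13 and 14 of 20 genes, with medians of -0.040 and -0.064. These shares are 65.0% and 70.0%, beside 60.4% and 47.2% of all genes. Hnrnpa1, a splicing factor of this list, differed by -0.14 and -0.55. Mitochondrial ribosomal proteins, of a separate ribosome, read lower in 64 of 75 genes in Ink4a/Arf-/- cells, with a median of -0.071, and in 37 of 75 in Ink4a/Arf+/+ cells, with a median of 0.0042. Their extremes in Ink4a/Arf-/- cells were Mrpl42 at -0.43 and Mrps21 at 0.49. Translation initiation genes read lower in 23 of 29 in each background, with medians of -0.055 and -0.070, and Eif4e, the cap-binding protein, differed by -0.23 and -0.31. Of 9 Myc network genes 5 read lower in each background. Myc itself differed by -0.055 and -0.37, and Mxd4 by 0.11 and 0.46. Of 13 S6 kinase and mTOR genes 6 read lower in each. Larp1, which binds pyrimidine-start mRNAs, differed by -0.17 and -0.24, and Rictor by 0.17 and 0.47.

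**Figure D5:**
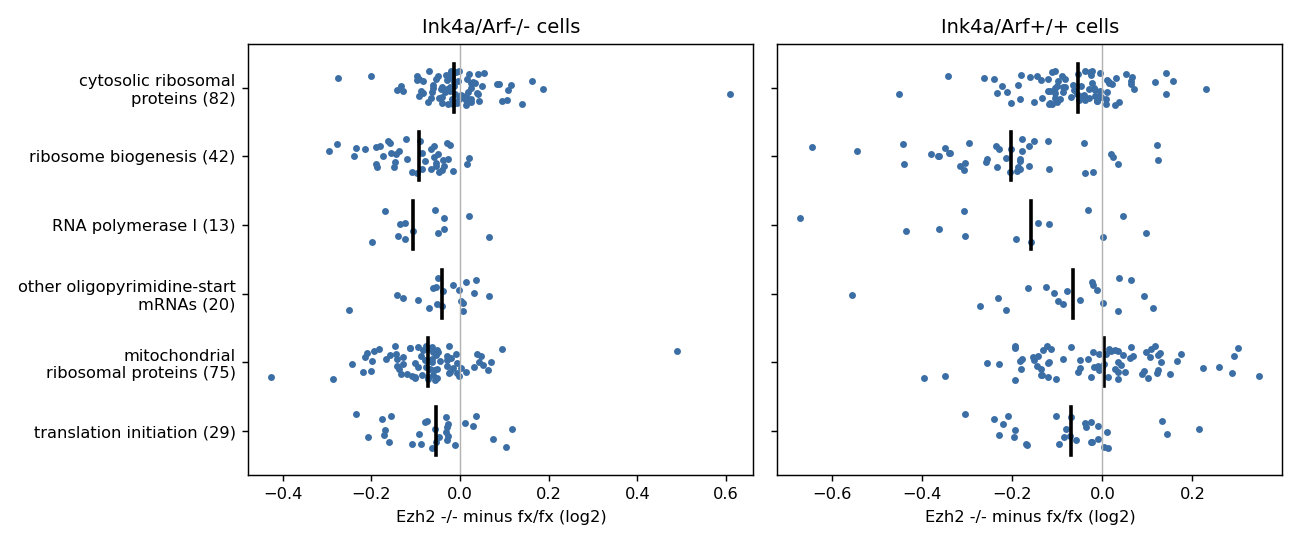
Difference of Ezh2 -/- minus fx/fx (log2) for the brightest probe set of each gene in 6 lists, with the number of genes in parentheses and a bar at each median, in Ink4a/Arf-/- cells (left) and Ink4a/Arf+/+ cells (right). The bars of ribosome biogenesis lie at -0.093 and -0.20, and those of the ribosomal proteins at -0.014 and -0.054.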

How the data were processed

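For each Ink4a/Arf background the authors deposited log2 levels by array and p-values by probe set, per the file headers. The submitters' processing notes name limma with no version. No label or header used here states the normalization or the genome build. Of the 23346 probe sets joined by array ID, 0 per-sample columns were left unused. The value table of the series held the same levels, with a largest difference of 0.

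Limma 3.58.1 (R 4.3.3) was fitted to the 6 arrays with 1 mean per group, 2 residual degrees of freedom and 3.76 prior ones. Tests were two-sided, adjusted with Benjamini-Hochberg over all probe sets and called below 0.05. Ink4a/Arf+/+ differences were counted at 2-fold. The fit was tested on simulated data. The members, lists, level classes, motifs and printed start regions were chosen with earlier results of these data known. Genes named are the stalk genes, paralogs with partners, and the 5 lowest and 5 highest genes with 1 probe set. Also named are 2-fold or called probe sets, the 8 widest genes and the members of the background lists. For other lists some of the lowest or highest genes in either background are named, more often low ones. Rpl37a, Rpl6, Rpl14 and others named for the agreement of their probe sets were chosen after their values were seen. A few genes chosen this way are not reported here. Alternatives were each array left out, a replicate block, quantile normalization, median centring, a filter on dim probe sets, a variance trend, the authors' deposited p-values, and other units for the median.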

Additional observations from a re-analysis of the deposited data

Results flagged for a closer look

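The Ezh2 difference of an Rpl13 probe set differed between the backgrounds by -2.93 on the log2 scale (limma, adjusted p = 0.006), under the assumption that the lone Ink4a/Arf+/+ arrays vary like the replicated ones. It read 3.25 in Ink4a/Arf+/+ cells without Ezh2 and 6.26 in fx/fx cells, the 1.15th and 33.7th percentile of 1 array each. The standard error joins the spread of its higher readings in Ink4a/Arf-/- cells with limma's prior over all probe sets. No replicate of such low readings of this probe set enters it. The other 8 Rpl13 probe sets did not pass. Its cause was not tested.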

How the results depend on the processing

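No member was called in Ink4a/Arf-/- cells in any setting run: 0 passed with each array left out, under the replicate block, a variance trend, quantile normalization, median centring, the filter on dim probe sets and the authors' deposited p-values. The replicate numbers were not treated as pairs, since the labels name nothing shared. The replicate differences of the genotypes correlated at 0.026 over all probe sets (0.21 over members). The replicate block gave 0 calls and an unchanged median of -0.041. In limma with that block 41 members had an unadjusted p below 0.05, or 11.4% beside 6.83% of all probe sets. The count at an unadjusted p below 0.05, an alternative added after seeing the data like the counts reading lower, was 61 with a variance trend (16.9% beside 8.94% of all probe sets) and 18 to 48 with an array left out, against 37. Without fx/fx replicate 2 the 48 were 13.3% beside 16.2%. Members called between the backgrounds numbered 3 with a variance trend (0.833% beside 2.69% of all probe sets), 2 under quantile normalization (0.556% beside 1.15%), 2 under median centring (0.556% beside 0.977%) and 1 to 5 with an array left out, the 5 without fx/fx replicate 2 (1.39% beside 1.05%). The 2-fold count in Ink4a/Arf+/+ cells was 4, or 1.11% beside 1.11% of all probe sets. At 1.5-fold it was 15, or 4.17% beside 4.47%. Without the dimmest 30% of probe sets the 2-fold count was 1, and the share over all probe sets was not taken there. The median in Ink4a/Arf-/- cells lay between -0.092 and -0.0089 with an array left out and was 0.016 over genes with 1 probe set. The members reading lower in Ink4a/Arf-/- cells numbered 194 to 276 with an array left out. Without fx/fx replicate 1 the share was 59.7% beside 44.1% of all probe sets, and without fx/fx replicate 2 it was 73.3% beside 71.2%. Quantile normalization gave 65.8% beside 50.7%, and median centring 62.5% beside 54.1%.

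Of 47 members named with values or for the agreement of their probe sets, 31 turned sign in Ink4a/Arf-/- cells when an array was left out, all of them among the 36 within 1 standard error of 0, and none of the 11 beyond it did. Their ranges were Rpl10 (-0.017 to 0.043), Rpl10l (-0.033 to 0.0703), Rpl13 (-0.14 to 0.10), Rpl14 (-0.19 to 0.019), Rpl21 (-0.069 to 0.00953), Rpl22 (-0.051 to 0.11), Rpl23 (-0.048 to 0.035), Rpl26 (-0.016 to 0.18), Rpl29 (-0.16 to 0.034), Rpl3 (-0.019 to 0.12), Rpl30 (-0.11 to 0.0076), Rpl35a (-0.20 to 0.029), Rpl38 (-0.038 to 0.012), Rpl3l (-0.13 to 0.055) and Rpl4 (-0.047 to 0.00065). The others were Rpl7 (-0.073 to 0.037), Rpl7a (-0.084 to 0.018), Rplp1 (-0.0015 to 0.083), Rplp2 (-0.0038 to 0.053), Rps10 (-0.088 to 0.079), Rps19 (-0.19 to 0.068), Rps2 (-0.0703 to 0.0199), Rps21 (-0.074 to 0.068), Rps23 (-0.0042 to 0.081), Rps24 (-0.12 to 0.089), Rps26 (-0.10 to 0.071), Rps27 (-0.0013 to 0.19), Rps3a (-0.11 to 0.031), Rps4y2 (-0.044 to 0.26), Rps6 (-0.10 to 0.0699) and Rps7 (-0.086 to 0.031). Median centring turned Rpl23 to 0.010, Rpl38 to 0.0031, Rps10 to 0.012, Rps21 to 0.013, Rps24 to 0.0032 and Rps26 to 0.00059, and quantile normalization turned Rps10 to 0.0028 and Rps21 to 0.016. Of 430 alternative values in Ink4a/Arf-/- cells or between the backgrounds, 378 kept direction and side of the threshold and 52 turned sign. Of 139 values in Ink4a/Arf+/+ cells, where nothing was tested, 6 turned sign: Rpl17, Rpl22, Rpl29 and Rpl39l under median centring, and Rpl39l and Rplp0 under quantile normalization. The cause was not tested.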
